A study of Homo sapiens with 12 samples.

Results

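The transcripts described here are those of 39 genes for RNA-binding proteins, namely the hnRNP, SR and FET proteins other than HNRNPUL1 and its paralogs HNRNPU and HNRNPUL2. They were chosen by gene symbol, among 61163 genes in each count table, and all 39 were found in both tables and passed the filter on low counts in every comparison. They were read in 12 libraries of total RNA from HEK293T cells, an established line of human embryonic kidney origin. RNA came from a nucleolar fraction (NO) and from the remaining cytoplasmic and nuclear material (CN) of wild-type cells (HEK WT) and of cells in which HNRNPUL1 was knocked out (HEK UL1 KO), with 3 replicates each, which the design text calls biological triplicates. The knockout line was made with CRISPR-Cas9 guides to exons 2 and 3 of HNRNPUL1, and the sources used here do not say whether it is a single clone. Because the RNA is from bulk cells, fewer cells and less RNA per cell cannot be told apart.

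The hnRNP proteins coat nascent pre-mRNA and take part in splicing, export, translation and decay, and the SR proteins bind exonic enhancers through RNA recognition motifs and recruit the spliceosome through serine- and arginine-rich tails. FET proteins (EWSR1 and TAF15 here), TARDBP, MATR3 and SFPQ bind RNA and, in part, DNA, and connect transcription with RNA processing. Many of these proteins regulate the splicing of their own pre-mRNA through exons or introns that send the transcript to nonsense-mediated decay, so that the amount of each mRNA is held within limits.

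The total count per library was between 37141666 and 83019079 in NO and between 54349399 and 104040073 in CN. Since rRNA was not depleted, rRNA genes took 55.3 to 65.1% of the counts in NO and 73.9 to 78.7% in CN. These shares are summed over 616 rRNA entries, many of them near-identical copies, and whether a read that aligned to several copies was counted at each is not given in the sources used here, so both the totals and the rRNA shares may hold repeated reads. A single gene of the set had 123 to 7764 raw counts in a NO library and 309 to 8893 in a CN library, with PCBP1 or HNRNPA0 lowest and HNRNPA2B1 highest. Levels are given as CPM, the count of a gene per 1e6 counts of its library scaled by the trimmed mean of M values (TMM) within each comparison. HNRNPUL1 itself was lower in HEK UL1 KO in both fractions by edgeR's quasi-likelihood test. In NO it fell from 15.4 ± 6.14 to 3.84 ± 0.262 CPM (SD, n = 3), which on the log2 scale was a change of -2.00 with a standard error (SE) of 0.323 (adjusted p = 0.00649). In CN it fell from 17.1 ± 1.41 to 4.80 ± 0.0583 CPM, a log2 fold change of -1.83 (SE 0.0828, adjusted p = 2.12e-07, edgeR's quasi-likelihood test). HEK WT NO replicate 3 stood apart, with a TMM factor of 1.40 where the other HEK WT NO libraries had 0.69 and 0.622 and the HEK UL1 KO NO libraries had 1.09 to 1.34. In CN, HEK WT replicate 3 differed from the rest, with a TMM factor of 0.76. The other HEK WT CN libraries had 1.01 and 1.04, and the HEK UL1 KO CN libraries had 1.07 to 1.09. It also had the highest total count (104040073) and the highest rRNA share (78.7%). Of 8 markers of HEK293T or kidney cells, VIM, CDH2, EYA1 and NEFM had 40.5, 30.3, 14.7 and 6.47 CPM in CN of HEK WT, while PAX2, KRT18, KRT8 and LHX1 had 1.03, 1.01, 0.668 and 0.259 CPM. The 10 markers of leukocytes, fibroblasts, hepatocytes and endothelium had 0.00521 to 0.585 CPM there, a range that holds the level of LHX1, and at most 2.09 CPM in any group. In CN of HEK UL1 KO, VIM had 14.7, CDH2 28.6, EYA1 4.26, NEFM 4.45, PAX2 1.75, KRT18 2.48, KRT8 3.32 and LHX1 0.945 CPM. Their part in the results was not tested. The snoRNAs SNORD3A and SNORD13 and the RNase MRP RNA RMRP, which belong to the nucleolus, were higher in NO than in CN of HEK WT, with log2 ratios of 4.67, 4.89 and 1.93 (adjusted p = 0.000338, 3.57e-05 and 0.00252, edgeR's quasi-likelihood test). Of the other fraction markers, ACTB, TUBA1B, MALAT1 and NEAT1 were lower in NO. Their log2 ratios were -0.86, -0.81, -1.08 and -1.16 (adjusted p = 0.0133, 0.0121, 0.00504 and 0.00787, same test). GAPDH, at -0.56, did not pass (adjusted p = 0.0897, same test). How much CN material was carried over into NO was not measured.

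Levels in CN of HEK WT, per kilobase of the canonical transcript in GENCODE release 44, spanned from 1.05 ± 0.0952 CPM per kb (SD, n = 3) for HNRNPA0 to 34.2 ± 0.592 for HNRNPH1 (SD, n = 3). This order rests on the length of 1 transcript per gene, 8713 bases for HNRNPA0 and 2240 for HNRNPH1. By CPM without a length, HNRNPA2B1 was highest (102 ± 3.08, SD, n = 3) and PCBP1 lowest (4.66 ± 0.155). Over replicates 1 to 3, HNRNPH1 had 33.6, 34.7 and 34.2 and HNRNPA0 1.10, 0.935 and 1.11 CPM per kb. HNRNPH1 binds G-rich tracts near splice sites, and HNRNPA0 is a small relative of HNRNPA1 that binds AU-rich elements. HNRNPA2B1 (28.2 ± 0.849 CPM per kb, SD, n = 3) and HNRNPC (28.1 ± 0.859) followed and did not differ beyond their spread, and the same was true of HNRNPA1 (24.2 ± 0.999) and HNRNPK (24.1 ± 1.59). RALY (1.44 ± 0.028), HNRNPLL (2.05 ± 0.0765) and PCBP1 (2.7 ± 0.09) were the other genes at the low end. In CN of HEK UL1 KO, HNRNPA2B1 was highest with 25.6 ± 0.493 CPM per kb (SD, n = 3), and HNRNPH1 had moved to the third place with 20.1 ± 0.960.

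The knockout was compared with the wild type in CN to ask whether the loss of hnRNP UL1 goes with a change in the messages of the other RNA-binding proteins. Of the 39 genes, 29 were lower in HEK UL1 KO and 0 were higher at an adjusted p under 0.05 in edgeR's quasi-likelihood test, where 37.9% of all 27234 genes tested were called, 22.3% lower and 15.6% higher. With no adjustment of p, 30 were lower and 0 higher, against 47.8% of all genes tested past that threshold, and DESeq2 called 28 lower and 0 higher, among 8622 genes called in all. The log2 fold change was below 0 for 38 genes, and only that of PCBP1 was above. Many abundant genes were lower in these libraries: among the 6642 genes with at least the mean count of the least abundant gene of the set (367.8), 64.1% were called, 53.7% lower and 10.5% higher. The median log2 fold change was -0.34 over the 39 genes, -0.28 over the 6642 abundant genes and 0.04 over all genes tested. The CPM of the 2 genotypes did not overlap for 34 of the 39 genes, against 52.8% of all genes tested. Markers of the fractions also differed between the genotypes in CN: the nuclear RNAs MALAT1 and NEAT1 rose by 0.93 (adjusted p = 3.13e-05) and 0.72 (adjusted p = 0.0022) on the log2 scale and GAPDH by 0.34 (adjusted p = 0.0275), RMRP fell by 0.53 (adjusted p = 0.00205) and TUBA1B by 0.73 (adjusted p = 6.39e-05, edgeR's quasi-likelihood test). The other 3 of the 8 markers did not pass, and the part of these shifts in the results was not tested. The called genes ranged in log2 fold change from -0.92 for SRSF11 to -0.22 for HNRNPH3.

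The number of calls was smaller under 2 alternatives. With total counts in place of TMM, the median of all genes moved to 0.24 and that of the 39 genes to -0.13, 29 of the 39 values were below 0, and 6 genes were called lower, namely HNRNPH1, HNRNPK, PTBP2, SRSF11, SRSF2 and SRSF4. With all 12 libraries in one TMM fit, the same genes except HNRNPK were called, 5 in all, while the median of the 39 genes was -0.42 and 4217 genes of all kinds were called. In that fit the SE was 0.255 for SRSF11 and 0.257 for HNRNPK, which had a log2 fold change of -0.77 (adjusted p = 0.0588, edgeR's quasi-likelihood test). Those 6 genes are also the 6 with the largest falls under TMM, and their levels are given one by one.

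**Figure D1:**
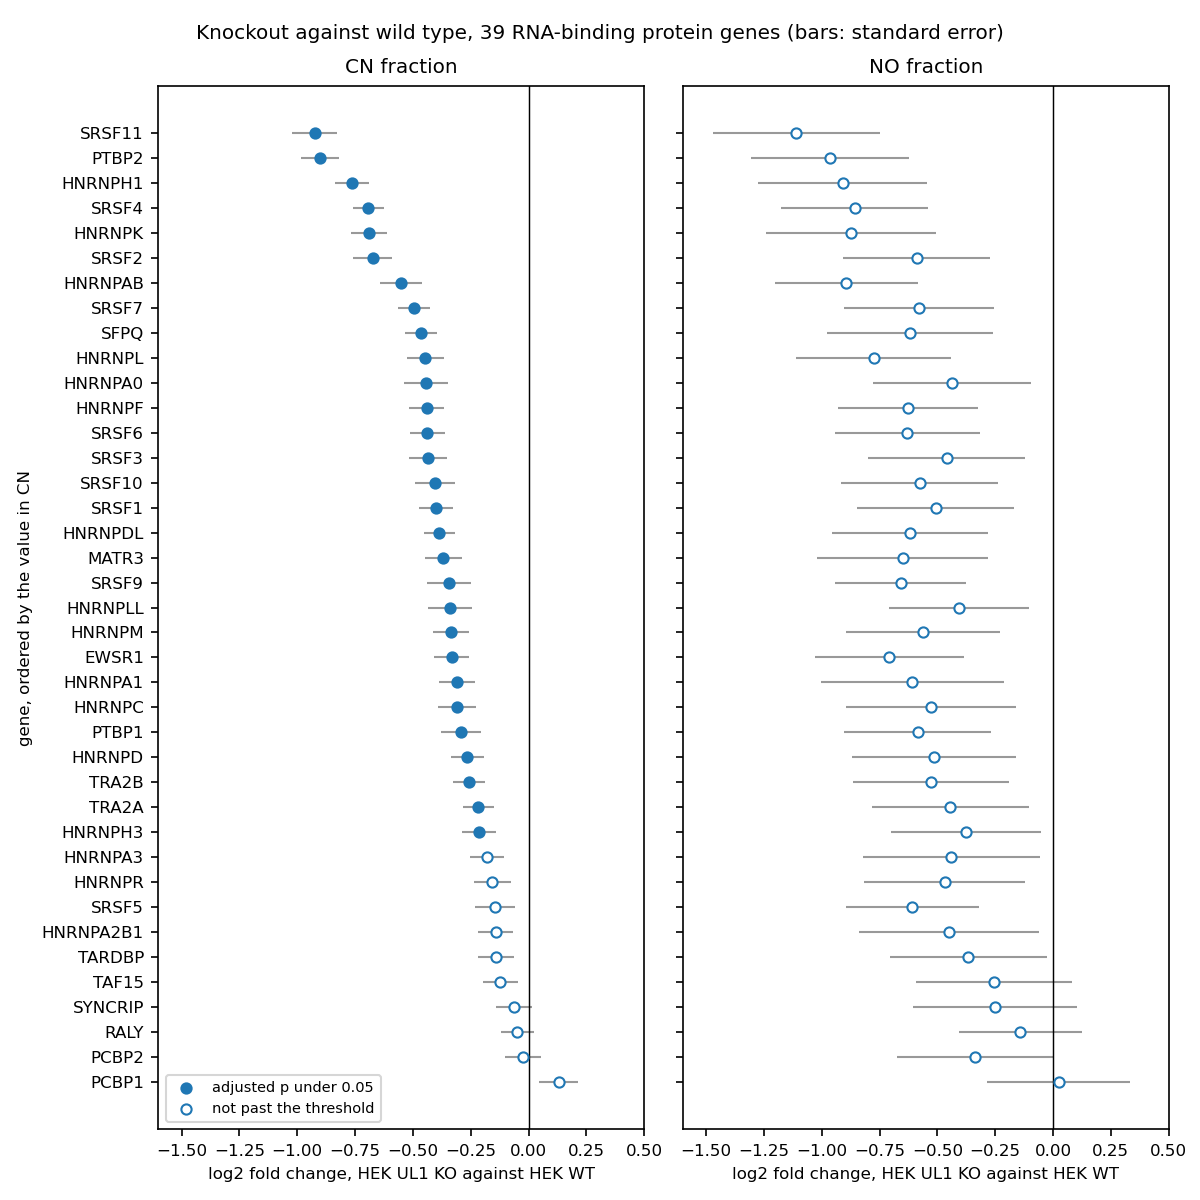
Log2 fold change of HEK UL1 KO against HEK WT (x axis) with its standard error for the 39 genes (y axis, ordered by the value in CN), in CN (left) and NO (right), with filled points for an adjusted p under 0.05 in edgeR's quasi-likelihood test. In CN, 29 points are filled and all but PCBP1 lie below 0, and in NO no point is filled and the error bars are longer.

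Among the SR and TRA2 genes, 11 of 12 were lower in CN, with a median log2 fold change of -0.42 over the 12. Of all genes tested 22.3% were lower, and of the abundant genes 53.7%, with a median of -0.28 over the abundant genes. SRSF11, an SR-related protein that acts on weak splice sites and small exons, had 79.5, 83.1 and 69.3 CPM in HEK WT and 42.0, 43.7 and 36.5 CPM in HEK UL1 KO. All knockout libraries lay below all wild-type libraries, and the log2 fold change was -0.92 (SE 0.097, adjusted p = 4.91e-05, edgeR's quasi-likelihood test). SRSF4, an SR protein with a long serine- and arginine-rich tail, had 28.3, 28.5 and 29.8 CPM in HEK WT and 17.9, 18.0 and 17.6 CPM in HEK UL1 KO. The groups did not overlap and were tight, at a log2 fold change of -0.69 (SE 0.0659, adjusted p = 2.61e-05, same test). SRSF2, which binds exonic enhancers and controls its own splicing through decay, had 18.2, 17.1 and 20.5 CPM in HEK WT and 11.6, 12.1 and 11.2 CPM in HEK UL1 KO. Again every wild-type library was above every knockout library, at a log2 fold change of -0.67 (SE 0.0827, adjusted p = 0.00013, same test). The other called genes of this family were SRSF7 (-0.49), SRSF6 (-0.44), SRSF3 (-0.44), SRSF10 (-0.40), SRSF1 (-0.40), SRSF9 (-0.35), TRA2B (-0.26) and TRA2A (-0.22), given as log2 fold changes. SRSF5 was the member that did not pass: it had 8.95, 8.54 and 9.97 CPM in HEK WT and 7.63, 8.58 and 8.63 CPM in HEK UL1 KO, and the groups overlapped (log2 fold change -0.14, SE 0.0872, adjusted p = 0.213, edgeR's quasi-likelihood test).

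Among hnRNP F/H, K and PCBP, L and PTBP, M, R and SYNCRIP, 9 of 13 genes were lower in CN, with a median log2 fold change of -0.33 over the 13. These stand beside 22.3% lower of all genes tested, and 53.7% lower and a median of -0.28 over the abundant genes. PTBP2, the neuronal relative of the splicing repressor PTBP1, had 51.7, 53.9 and 49.3 CPM in HEK WT and 28.0, 29.8 and 25.2 CPM in HEK UL1 KO. The groups were far apart relative to their spread, and the log2 fold change was -0.90 (SE 0.0826, adjusted p = 2.03e-05, edgeR's quasi-likelihood test). Its paralog PTBP1, which represses exons with pyrimidine-rich flanks, was lower by a smaller log2 fold change of -0.29 (SE 0.0856, adjusted p = 0.0206, same test). The difference between the paralogs was not tested.

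HNRNPH1 had 75.1, 77.8 and 76.6 CPM in HEK WT and 45.9, 46.5 and 42.5 CPM in HEK UL1 KO. The knockout libraries lay below all wild-type libraries (log2 fold change -0.77, SE 0.0734, adjusted p = 2.76e-05, edgeR's quasi-likelihood test). HNRNPK, a KH-domain protein that binds C-rich RNA and DNA, had 73.1, 64.4 and 71.5 CPM in HEK WT and 43.1, 44.8 and 41.6 CPM in HEK UL1 KO, again without overlap (log2 fold change -0.69, SE 0.0784, adjusted p = 8.05e-05, same test). The others called lower were HNRNPL (-0.45), HNRNPF (-0.44), HNRNPLL (-0.34), HNRNPM (-0.33) and HNRNPH3 (-0.22).

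HNRNPR, SYNCRIP, PCBP2 and PCBP1 did not pass the test in CN. PCBP1 and PCBP2 bind C-rich RNA through KH domains, as HNRNPK does. PCBP1 had 4.79, 4.49 and 4.71 CPM in HEK WT and 4.86, 5.24 and 5.22 CPM in HEK UL1 KO. Its knockout libraries were all above its wild-type libraries, by a log2 fold change of 0.13 (SE 0.0845) that did not pass the test (adjusted p = 0.243, edgeR's quasi-likelihood test). PCBP2 overlapped between the genotypes, at a log2 fold change of -0.02 (SE 0.0764, adjusted p = 0.819, same test) and a value above 0 when only genes with at least 10 counts in every library were kept or when replicate 3 of either genotype was left out.

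Among hnRNP A/B, D, C and RALY, 6 of 9 genes were lower in CN, with a median log2 fold change of -0.31 over the 9. The share lower was 22.3% over all genes tested and 53.7% over the abundant genes, whose median was -0.28. The genes called lower were HNRNPAB (-0.55), HNRNPA0 (-0.44), HNRNPDL (-0.39), HNRNPA1 (-0.31), HNRNPC (-0.31) and HNRNPD (-0.26). HNRNPA1 and HNRNPA2B1 are abundant packaging proteins that repress exons, and HNRNPC binds uridine tracts. HNRNPA2B1, HNRNPA3 and RALY did not pass, with log2 fold changes of -0.14 (adjusted p = 0.156), -0.18 (adjusted p = 0.0726) and -0.05 (adjusted p = 0.605, edgeR's quasi-likelihood test). Of the remaining 5 genes, SFPQ, a paraspeckle protein, was lower at a log2 fold change of -0.47, MATR3, a nuclear matrix protein, with -0.37, and EWSR1 with -0.33. TARDBP, which represses cryptic exons, and TAF15 did not pass, with log2 fold changes of -0.14 (adjusted p = 0.166) and -0.12 (adjusted p = 0.223, same test).

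**Figure D2:**
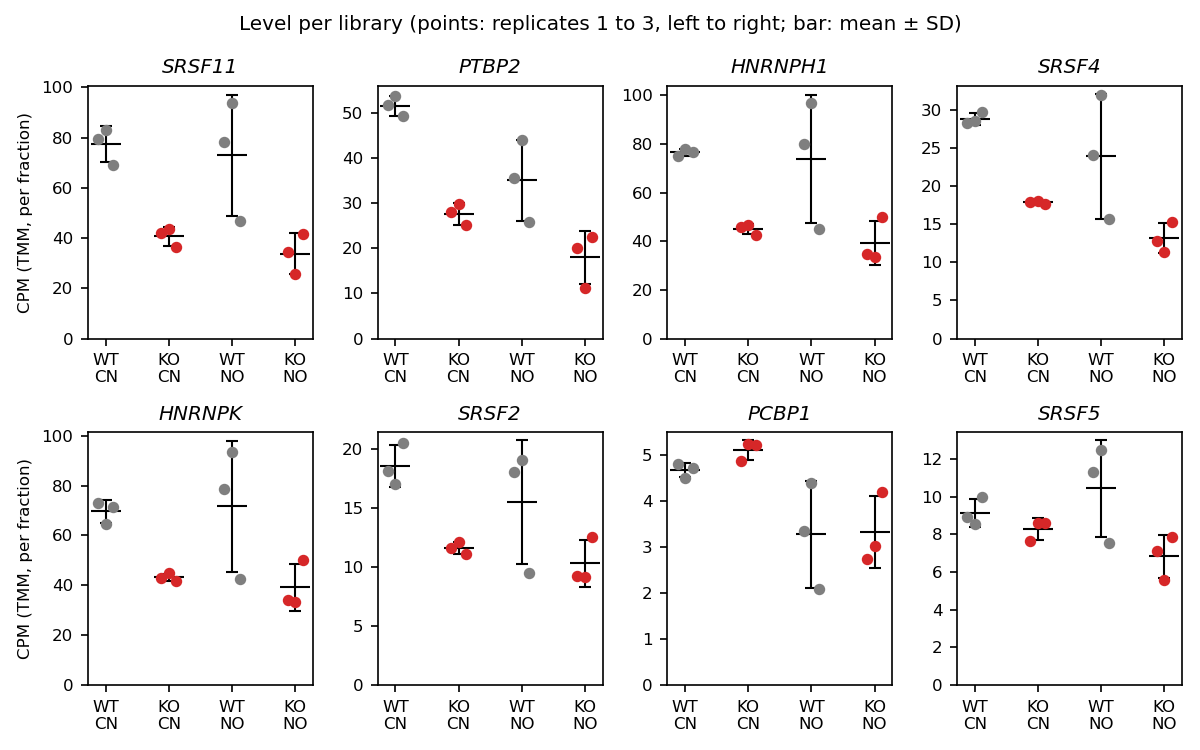
Level in CPM (y axis, TMM-scaled within each fraction) of the 6 genes with the largest falls in CN and of PCBP1 and SRSF5, with points for the 3 replicates of each genotype and fraction (x axis) and bars for the mean and SD. In CN the knockout points of the first 6 genes lie below all wild-type points, while in NO their 3rd wild-type point lies close to the knockout points.

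In NO, 0 of 39 genes were called in either direction by edgeR's quasi-likelihood test, where 0.939% of 34836 genes tested were called, 0.365% higher and 0.574% lower. With no adjustment of p, 10 were lower and 0 higher, against 16.0% of all genes tested past that threshold in either direction, and DESeq2 called SRSF11 lower. The log2 fold change was below 0 for 38 of the 39 genes, and the median was -0.58 over the 39 genes, -0.30 over the 10126 genes with at least the mean count of the least abundant of them (167.3) and 0.004 over all genes tested. Of those 10126 genes, 1.54% were called, 0.425% higher and 1.12% lower. The SEs, from 0.267 to 0.395, were larger than the 0.0659 to 0.097 in CN. Replicates spread more in NO: the SD over the 3 HEK WT libraries was 18.5 to 45.8% of the mean (median 35.8%) in NO and 0.904 to 10.6% (median 4.64%) in CN. With total counts in place of TMM, the median of the 39 genes was -0.00057 while that of all genes moved to 0.40, and 20 of the 39 values were below 0.

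The 3 genes whose CPM did not overlap between the genotypes in NO were SRSF11, PTBP2 and SRSF4, against 20.1% of all genes tested. SRSF11 had 78.5, 93.8 and 46.7 CPM in HEK WT and 34.4, 25.5 and 41.6 CPM in HEK UL1 KO (log2 fold change -1.11, SE 0.360, adjusted p = 0.149, edgeR's quasi-likelihood test). PTBP2 had 35.6, 44.0 and 25.9 CPM in HEK WT and 20.1, 11.3 and 22.5 CPM in HEK UL1 KO (log2 fold change -0.96, SE 0.340, adjusted p = 0.18, same test). For both genes the 3rd wild-type library was nearest to the knockout libraries. SRSF4 had 24.1, 32.0 and 15.6 CPM in HEK WT and 12.8, 11.4 and 15.3 CPM in HEK UL1 KO (log2 fold change -0.86, SE 0.319, adjusted p = 0.203, same test), so that its groups were separated by less than 1 CPM. Without HEK WT NO replicate 3, the library that stood apart, 24 of the 39 genes were called lower, and the median of the 39 was -0.81. With it left out, 9133 genes of all kinds were called, where 34836 genes were tested with every NO library kept. Of the 24, 23 were among the genes called lower in CN, SRSF5 being the other. Without HEK WT NO replicate 1 or replicate 2 instead, 0 of the 39 were called, among 123 and 223 genes of all kinds. The medians of the 39 were then -0.43 and -0.28, so the count in NO rests on which wild-type library is left out.

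The difference between the genotype effects in NO and CN was tested in a fit of all 12 libraries. It was called for 0 of 39 genes by edgeR's quasi-likelihood test, where 0.114% of 37806 genes tested were called. With no adjustment of p it was again 0, against 3.32% of all genes tested, and DESeq2 called 0. The log2 difference (effect in NO minus effect in CN) ran from -0.30 for SRSF5 (SE 0.290) to 0.25 for SRSF2 (SE 0.324), with an adjusted p of 1 for each of the 39. The 95% interval (normal) reached 0.472 to 0.807 on the log2 scale (median 0.676) on either side of these differences, so that smaller differences were not detectable. The median difference over the 39 genes was -0.03, and leaving out 1 library at a time moved it between -0.28, without HEK WT NO replicate 3, and 0.18, without HEK WT NO replicate 2. The genes kept a similar order in the 2 fractions. These are different libraries but come from the same wild-type and knockout lines, so they are not independent measures of the knockout. Across the 39 genes, which are not independent replicates, the log2 fold changes in NO and CN had Pearson's r of 0.883 and Spearman's rho of 0.801.

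Each gene's share of the summed counts of all 39 does not depend on the scaling factor, and it was followed across the libraries as a description without a test, since a rise of one share lowers the others. In CN, 8 genes had shares that were lower in all 3 knockout libraries than in all 3 wild-type ones, 14 had higher shares and 17 overlapped. In NO, 5 shares were lower, 9 were higher and 25 overlapped. No background was computed for shares, so whether these numbers are more than other sets of genes would give was not tested. For scale, the CPM values of the genotypes were fully separated for 52.8% of all genes tested in CN and 20.1% in NO. Those CPM values, unlike the shares, depend on the scaling factor. The shares of HNRNPH1, HNRNPK, SRSF11 and SRSF4 were lower in both fractions without overlap. SRSF11 made up 5.37, 5.83 and 4.81% of the 39 genes' counts in CN of HEK WT and 3.77, 3.78 and 3.41% in CN of HEK UL1 KO. In NO its shares were 5.43, 5.50 and 5.86% in HEK WT and 4.25, 3.59 and 3.85% in HEK UL1 KO, so the library that stood apart on the CPM scale was here the highest. PTBP2 had a mean share of 3.56% in HEK WT and 2.48% in HEK UL1 KO in CN, without overlap, and overlapped in NO.

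The shares of HNRNPA2B1, HNRNPH3, HNRNPR, PCBP1, PCBP2, SYNCRIP, TAF15 and TARDBP were higher in HEK UL1 KO in both fractions without overlap. A higher share is not a higher level. By CPM in CN, HNRNPH3 was called lower (log2 fold change -0.22), and of these genes only PCBP1 had a log2 fold change above 0. PCBP1 had shares of 0.323, 0.314 and 0.326% in CN of HEK WT and 0.436, 0.452 and 0.487% in CN of HEK UL1 KO. In NO its shares were 0.231, 0.258 and 0.261% in HEK WT and 0.337, 0.424 and 0.389% in HEK UL1 KO. The log2 ratio of the mean shares was 0.51 in CN and 0.62 in NO for PCBP1, and 0.35 and 0.31 for its paralog PCBP2. For SYNCRIP, an hnRNP R relative that also acts in the cytoplasm, the ratios were 0.32 and 0.34. No share moved in opposite directions without overlap in the 2 fractions. In sum, the 39 genes held 0.515 to 0.589% of the counts outside rRNA in CN of HEK WT and 0.461 to 0.485% in CN of HEK UL1 KO, which did not overlap, and 0.248 to 0.285% and 0.214 to 0.289% in NO, which did.

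**Figure D3:**
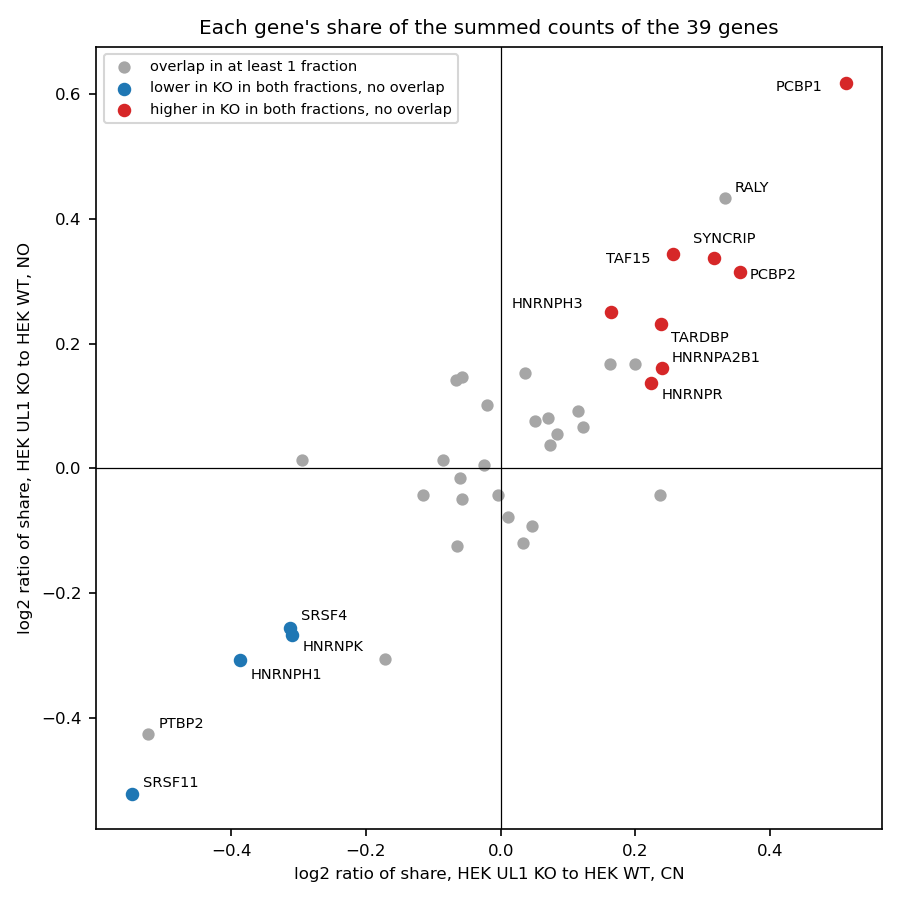
Log2 ratio of each gene's mean share of the summed counts of the 39 genes, HEK UL1 KO to HEK WT, in CN (x axis) and NO (y axis), with 1 point per gene. Shares of the 4 blue genes were lower and those of the 8 red genes higher in both fractions, without overlap of the 3 replicates. They ran from SRSF11 at -0.55 in CN and -0.52 in NO to PCBP1 at 0.51 and 0.62.

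Upstream sequences are shown for the 4 genes whose shares were lower in both fractions and, at the other end of that order, for PCBP1, whose share was higher. RefSeq (GRCh38.p14) gave an entry for 34 of the 39 genes. The 250 bases before the start are printed 5′ to 3′ on the strand of the gene, for SRSF11 (chr1:70205446-70205695, plus strand), HNRNPH1 (chr5:179634785-179635034, minus strand), HNRNPK (chr9:83980616-83980865, minus strand) and SRSF4 (chr1:29181901-29182150, minus strand), and for PCBP1 (chr2:70087227-70087476, plus strand). Where RefSeq lists several starts for a gene, the window shown is the one outside the gene's span. Capitals mark the letters CCAAT (the CCAAT box), GGGCGG (the GC box) or TATAAA (the TATA box) on either strand.
SRSF11: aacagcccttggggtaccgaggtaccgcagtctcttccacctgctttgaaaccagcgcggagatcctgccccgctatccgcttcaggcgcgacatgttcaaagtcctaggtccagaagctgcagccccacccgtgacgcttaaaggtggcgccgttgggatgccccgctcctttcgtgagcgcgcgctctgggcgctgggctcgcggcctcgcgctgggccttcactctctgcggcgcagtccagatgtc
HNRNPH1: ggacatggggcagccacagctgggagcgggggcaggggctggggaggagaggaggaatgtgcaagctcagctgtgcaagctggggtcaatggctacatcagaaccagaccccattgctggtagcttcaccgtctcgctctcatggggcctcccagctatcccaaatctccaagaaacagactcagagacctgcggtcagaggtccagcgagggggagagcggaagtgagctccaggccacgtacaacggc
HNRNPK: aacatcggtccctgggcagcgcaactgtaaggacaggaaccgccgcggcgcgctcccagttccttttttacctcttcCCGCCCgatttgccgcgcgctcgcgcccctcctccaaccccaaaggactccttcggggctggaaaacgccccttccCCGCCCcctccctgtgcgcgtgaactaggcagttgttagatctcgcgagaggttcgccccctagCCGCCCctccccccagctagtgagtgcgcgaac
SRSF4: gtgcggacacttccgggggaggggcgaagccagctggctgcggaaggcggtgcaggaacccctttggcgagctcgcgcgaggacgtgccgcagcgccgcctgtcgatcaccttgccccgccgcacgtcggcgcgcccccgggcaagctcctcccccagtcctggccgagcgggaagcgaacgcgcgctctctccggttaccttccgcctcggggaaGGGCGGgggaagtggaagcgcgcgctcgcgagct
PCBP1: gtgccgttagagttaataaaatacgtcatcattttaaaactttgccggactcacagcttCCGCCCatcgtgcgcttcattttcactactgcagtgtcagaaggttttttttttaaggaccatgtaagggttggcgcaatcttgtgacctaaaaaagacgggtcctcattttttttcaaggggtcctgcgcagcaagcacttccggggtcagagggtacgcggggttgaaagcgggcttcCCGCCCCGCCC
SRSF11 and HNRNPH1 had no match to these letters in this window, HNRNPK had 3 GC boxes, SRSF4 had 1, and PCBP1, a gene with 1 exon, had 3, the last pair of which overlap. Over the first listed window of each of the 34 genes, GGGCGG was in 67.6%, against 42.6% of the 35116 windows of all genes. CCAAT was in 35.3% against 32.0%, and TATAAA in 14.7% against 10.7%. A match is a run of letters and not a measured site.

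HEK WT cells were used to compare NO with CN. Of the 39 genes, 28 were lower in NO and 0 higher by edgeR's quasi-likelihood test, where 52.8% of 29340 genes tested were called, 20.9% lower and 31.9% higher. With no adjustment of p, 31 were lower and 0 higher, against 58.8% of all genes tested, and DESeq2 called 39 lower and 0 higher, among 18674 genes called in all. Among the 7903 genes with at least the mean count of the least abundant of the 39 (257.5), 65.1% were called, 58.5% lower and 6.66% higher. All 39 log2 ratios were below 0 and no gene's CPM overlapped between the fractions, against 65.6% of all genes tested without overlap. The median log2 ratio was -0.73 over the 39 genes, -0.56 over the abundant genes and 0.02 over all genes tested. By family, 6 of 9 genes of hnRNP A/B, D, C and RALY were lower in NO, 9 of 13 of the hnRNP F/H to SYNCRIP group, 10 of 12 SR and TRA2 genes, and 3 of 5 of EWSR1, TAF15, TARDBP, MATR3 and SFPQ. With total counts in place of TMM, 2 genes were called, HNRNPA0 and SRSF1, the median of all genes moved to 0.37, that of the 39 genes to -0.43 and the ratio of SRSF5 to 0.03, the only one above 0.

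The lowest log2 ratios of NO to CN were those of PTBP2, HNRNPA0 and PCBP1. PTBP2 had 26.0, 29.6 and 22.6 CPM in NO and 53.2, 55.0 and 52.7 CPM in CN (log2 ratio -1.04, SE 0.169, adjusted p = 0.00394, edgeR's quasi-likelihood test). HNRNPA0 had 5.51, 5.44 and 3.12 CPM in NO and 9.80, 8.32 and 10.3 CPM in CN (log2 ratio -1.02, SE 0.226, adjusted p = 0.00613, same test). PCBP1 had 2.44, 2.96 and 1.81 CPM in NO and 4.92, 4.58 and 5.03 CPM in CN (log2 ratio -1.02, SE 0.205, adjusted p = 0.00487, same test). For these genes NO replicate 3 was the lowest library. The highest log2 ratios were those of SRSF5, SRSF7 and MATR3, which did not pass the test. SRSF5 had 8.25, 8.41 and 6.57 CPM in NO and 9.19, 8.72 and 10.6 CPM in CN (log2 ratio -0.30, SE 0.164, adjusted p = 0.15, same test). SRSF7, an SR protein with a zinc knuckle, had 22.0, 18.7 and 15.6 CPM in NO and 24.3, 23.4 and 26.0 CPM in CN (log2 ratio -0.39, SE 0.169, adjusted p = 0.0791, same test). MATR3 had 79.3, 72.7 and 51.5 CPM in NO and 91.5, 88.5 and 88.6 CPM in CN (log2 ratio -0.40, SE 0.205, adjusted p = 0.126, same test). Their fractions were separated by a narrow gap, which for SRSF5 was under 1 CPM. Without HEK WT NO replicate 2, all 39 genes were called lower in NO, among 21120 genes called in all, and without HEK WT CN replicate 1, 20 were, among 12834.

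**Figure D4:**
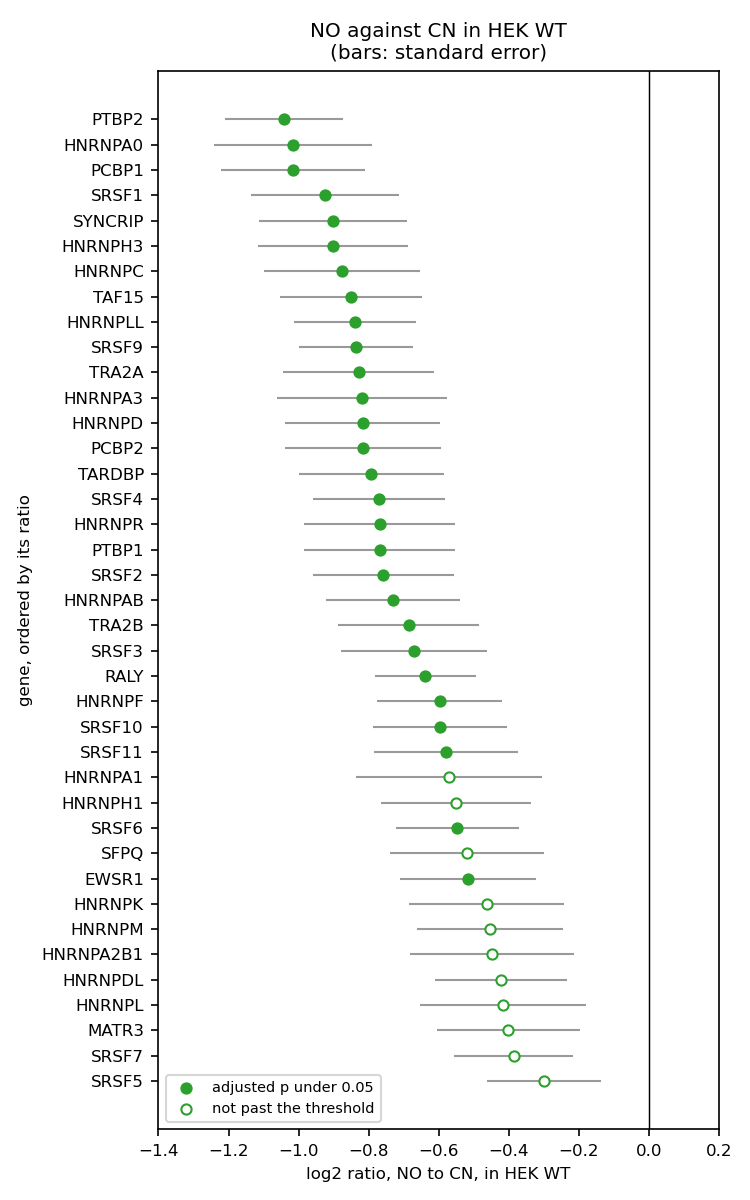
Log2 ratio of NO to CN in HEK WT (x axis) with its standard error for the 39 genes (y axis, ordered by the ratio), with filled points for an adjusted p under 0.05 in edgeR's quasi-likelihood test. All points lie below 0, from -1.04 for PTBP2 to -0.30 for SRSF5, and 28 are filled.

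The log2 fold changes in CN were also set beside those of genes within 2 Mb on the same chromosome, at RefSeq positions of GRCh38.p14. SRSF4 (chromosome 1, 29147743 to 29181900) lay among genes that were themselves lower: the median over its 57 neighbours was -0.69 in CN, the value of SRSF4 itself, and 36 of them (63.2%) were called lower, where 22.3% of all genes tested were. In NO the median over its 65 neighbours was -0.82, beside -0.86 for SRSF4, and 11 were called lower. Within 5 Mb of SRSF4 the median over 149 neighbours in CN was -0.37. The neighbours of HNRNPH1 (chromosome 5, 179614178 to 179634784) and of HNRNPK (chromosome 9, 83968083 to 83980615) each had a median of -0.43 in CN, with 33 of 69 (47.8%) and 10 of 24 (41.7%) called lower. The part of the neighbourhood in these falls was not tested. Within 2 Mb, SRSF11 (chromosome 1, 70205696 to 70253052) and PTBP2 (chromosome 1, 96721784 to 96823739) had neighbours with medians nearer 0 or above it, -0.15 and 0.28. Within 5 Mb their medians were -0.37 and -0.34, beside -0.37 for HNRNPH1 and -0.50 for HNRNPK. The contrast with SRSF4, HNRNPH1 and HNRNPK was therefore limited to the 2 Mb window. SRSF2, also among the genes with the largest falls in CN, had a neighbour median of 0.17 within 2 Mb, with 7.14% called lower. HNRNPA2B1 and SRSF5, which were not called, had neighbour medians of -0.35 and -0.24, with 44.4% and 45.9% called lower. Around TAF15 (chromosome 17, 35809484 to 35847242) the median was 0.43. Over all 39 genes the medians of the neighbours ran from -0.69 to 0.43, with a median of -0.07, and the fold change of a gene and the median of its neighbours in CN had r = 0.193 and rho = 0.194 across the 39 genes. The fold change in CN was likewise little related to gene span (r = -0.119), transcript length (r = 0.036) or number of exons (r = -0.065) across these genes.

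**Figure D5:**
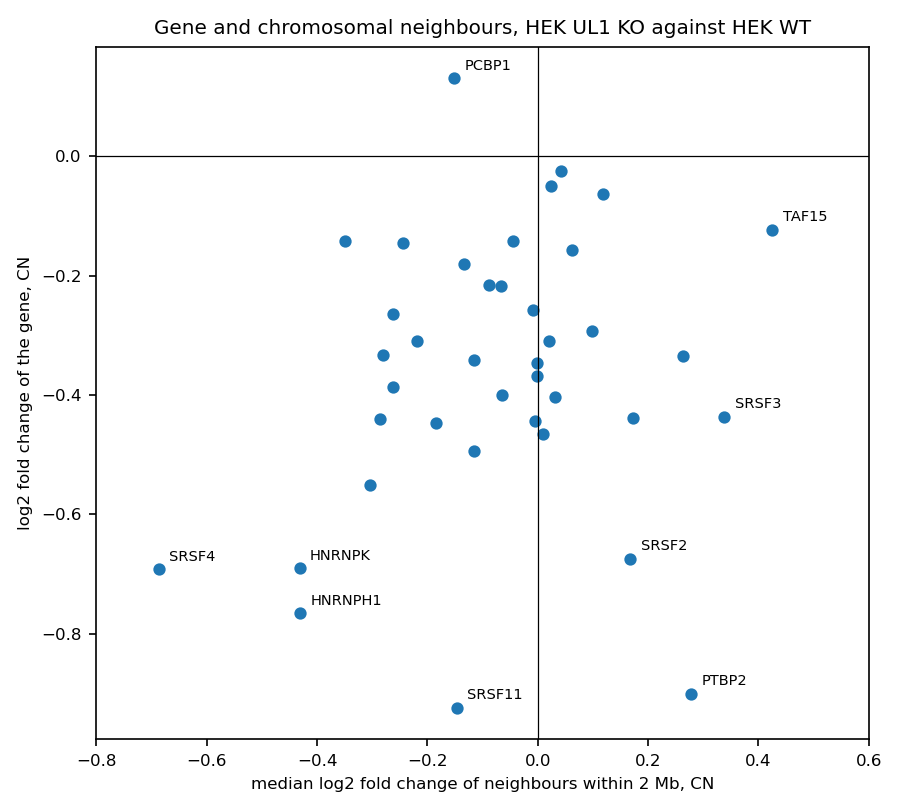
Log2 fold change of each of the 39 genes in CN (y axis) against the median log2 fold change in CN of all tested genes within 2 Mb (x axis), HEK UL1 KO against HEK WT, with 1 point per gene. SRSF4, HNRNPK and HNRNPH1 lie at the lower left, where the neighbour median was below 0, and PTBP2 lies at the lower right with a neighbour median of 0.28.

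Several of these genes have near-identical copies with entries of their own, and how reads shared by such copies were counted is not given in the sources used here. Entries for alternate loci of HNRNPH1, HNRNPL, HNRNPR and TAF15 held 99.6 to 100.0% of the counts of the gene itself in CN of HEK WT, and reads of these entries and of the gene cannot be told apart. The 75 pseudogene entries of HNRNPA1 summed to 281.7% of its count, the 16 of HNRNPA3 to 60.6% and the 9 of HNRNPC to 23.3%. How many of these reads were also counted at the gene is not known. The values of these genes are therefore uncertain to an extent that was not measured. The pseudogene entries of HNRNPL held 14.7%, those of SRSF9 14.1%, HNRNPK 12.3%, TARDBP 11.8% and SRSF6 10.3% of the gene's count, and the same holds for the values of these genes. The remaining genes had less than 10% or none. PTBP2, SRSF4 and PCBP1 had no pseudogene entry, and those of SRSF11 and HNRNPH1 held 0.194% and 0.741% of the gene's count. Genes on the opposite strand overlap 47.3% of the canonical transcript of PCBP2 and 42.6% of that of SRSF9. Whether counting used the strand is not given in the sources used here, so reads of these partners cannot be told apart. On the same strand, other genes overlap 1749 of the 2754 bases of the canonical transcript of SYNCRIP and 1690 of 5343 for SRSF1. For PCBP2, SRSF6 and HNRNPL the same-strand overlaps are 1048, 654 and 561 bases, and those of the remaining genes are shorter. Use of the strand would not separate such reads. With the alternate-locus entries left out, 28 of the 39 genes were called lower in CN.

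Genes that act on these proteins were described from lists chosen for that purpose. Among 7 kinases that phosphorylate SR proteins, 5 were lower in CN and 0 higher, where 22.3% of all genes tested and 53.7% of abundant genes were lower, with CLK4 lowest at a log2 fold change of -0.84 (SE 0.0969, adjusted p = 8.61e-05, edgeR's quasi-likelihood test). Of 7 import receptors and arginine methyltransferases that take hnRNP, SR and FET proteins as cargo or substrate, 5 were lower and 0 higher. TNPO1, the import receptor of HNRNPA1 and the FET proteins, had the smallest p, at a log2 fold change of -1.09 (SE 0.0833, adjusted p = 6.56e-06, same test). Of 9 other SR-related activators, 3 were lower and 0 higher, and RBM39 had the smallest p (log2 fold change -0.32, SE 0.0717, adjusted p = 0.00499, same test). Of 12 other RNA-binding regulators of splicing, 8 were lower and 0 higher, and FUBP1 had the smallest p (log2 fold change -0.93, SE 0.0765, adjusted p = 1.06e-05, same test). The medians of these lists in CN were -0.27, -0.42, -0.03 and -0.40, beside 0.04 over all genes tested, -0.28 over abundant genes and -0.34 over the 39 genes. In NO, 0 genes of these lists were called by edgeR's quasi-likelihood test.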

How the data were processed

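RNA-seq of total RNA without rRNA depletion was analysed in 12 libraries, 3 per genotype and fraction. Per the labels and the study's methods, the authors checked reads with FastQC 0.11.4, trimmed adapters with cutadapt 3.7, aligned to GRCh38 with STAR 2.7.8 and counted genes with featureCounts, names and versions being those in the submitters' processing notes. The authors deposited the raw counts as 1 table per fraction, with no scaling. Counting options, strand setting and annotation version are not given in the sources used here. All 12 count columns were matched to their labels and 0 were left over. The genes and lists described were chosen with earlier results of these data known.

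Counts were analysed in R 4.3.3 with edgeR 4.0.16 (filterByExpr with a minimum count of 10 and total of 15, TMM, quasi-likelihood F test, Benjamini-Hochberg adjustment over all genes tested, calls under 0.05) on the libraries compared, with no replicate block. The difference between fractions was fitted on all 12. Standard errors were taken as the absolute log2 fold change over the root of F. p values measure the spread between these libraries only. Replicates differed by more than sampling noise (chi-square per gene at least 17.1). Procedures were tested on simulated data.

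Alternatives were DESeq2 1.42.0 with its defaults, its size factors in edgeR, total counts, TMM without rRNA, mitochondrial and short RNA genes, no filter, at least 10 counts in every library, a replicate block, all 12 libraries in one fit, unadjusted p, leaving out each library and, added after seeing the data, leaving out 6582 alternate-locus entries. Same-numbered libraries did not deviate together (r from -0.545 to -0.0444), so the numbers were not used as pairs. Positions and upstream sequences came from RefSeq (GRCh38.p14) and transcript lengths from GENCODE release 44, with Python 3.11.15, pandas 2.3.3, numpy 2.4.6 and matplotlib 3.10.9.

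Levels per library are given for the 6 called genes with the largest fall in CN (none rose), the 3 highest and 3 lowest ratios of NO to CN in HEK WT, the extremes of level per kilobase, and genes called in NO or in the difference between fractions (none). The values of SRSF11, PTBP2 and SRSF4 in NO, of SRSF5 and PCBP1 in CN, the shares and the upstream sequences were chosen after the values were seen. From other lists, the gene with the smallest p was named.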

Additional observations from a re-analysis of the deposited data

How the results depend on the processing

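In CN, the count of the 39 genes called lower stayed between 25 and 30 with DESeq2, its size factors, TMM without rRNA, mitochondrial and short RNA genes, no filter, at least 10 counts in every library, unadjusted p, alternate-locus entries left out or the replicate block, and between 21 and 27 with 1 library left out. It was 6 with total counts (5421 of all genes called) and 5 with all 12 libraries in one fit (4217). In NO, the count was 1, SRSF11, with DESeq2 (1070 of all genes) and with all 12 libraries (1744), 10 at unadjusted p (5574), 0 with total counts (10), with no filter (1190) and with at least 10 counts in every library (143), and 0 to 24 with 1 library left out (123 to 9133). The 24 were found without HEK WT NO replicate 3. For NO against CN in HEK WT it was 2 with total counts (6993 of all genes), 23 with at least 10 counts (8759), 39 with DESeq2 and with all 12 libraries (24943) and 20 to 39 with 1 library left out. For the difference between fractions it was 0 under every alternative run, while the count over all genes was 81 with DESeq2, 0 with total counts, 104 with no filter, 20 with at least 10 counts, 1254 at unadjusted p and 25 to 57 with 1 library left out. The cause of these shifts was not tested.

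With the replicate block, the genes called lower were 28 in CN, 0 in NO, 23 for NO against CN (9577 of all genes) and 0 for the difference between fractions. The labels do not say that the numbers pair the libraries, and same-numbered libraries did not deviate together.

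With total counts, log2 fold changes in NO turned above 0 for RALY (0.34), SYNCRIP (0.33), TAF15 (0.31), PCBP2 (0.24), TARDBP (0.22), HNRNPH3 (0.21), HNRNPA3 (0.17), HNRNPA0 (0.15), TRA2A (0.15), HNRNPA2B1 (0.13), HNRNPLL (0.13), HNRNPR (0.11), SRSF3 (0.11), HNRNPD (0.074), SRSF1 (0.067), HNRNPC (0.054), TRA2B (0.051) and HNRNPA1 (0.0022). In CN they did so for PCBP2 (0.19), RALY (0.16), SYNCRIP (0.13), TAF15 (0.076), SRSF5 (0.071), HNRNPA2B1 (0.059), TARDBP (0.058), HNRNPR (0.036) and HNRNPA3 (0.020), and for NO against CN for SRSF5 (0.034). With at least 10 counts in every library, PCBP2 (0.054), RALY (0.030) and SYNCRIP (0.016) turned above 0 in CN. PCBP1 in NO turned to -0.027 with DESeq2, -0.012 with its size factors and -0.013 with no filter. None of these values was called in the comparison concerned under TMM. With 1 library left out, values ranged from -0.24 to 0.32 for PCBP1, -0.52 to 0.037 for TAF15 and -0.29 to 0.0098 for RALY in NO, and from -0.066 to 0.079 for PCBP2, -0.091 to 0.014 for RALY and -0.097 to 0.0072 for SYNCRIP in CN. Of the alternatives run for single genes, 1635 kept direction and side of the threshold, 151 lost a call, 86 gained one and 42 changed sign.

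The knockout line is compared with 1 wild-type line, so line and genotype cannot be told apart. Depth outside rRNA limits the least abundant genes, and the spread between NO libraries limits what that fraction can show.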

Other observations

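Among 15 genes of the exon junction complex and nonsense-mediated decay, 6 were lower and 1 higher in CN of HEK UL1 KO, with a median log2 fold change of -0.13. In the same comparison 22.3% of all genes tested and 53.7% of abundant genes were lower, and the lists given here are to be read against those shares. The 2 UPF3 paralogs, which bridge the exon junction complex and UPF2, moved in opposite directions: UPF3B had the smallest p, at a log2 fold change of -0.62 (SE, the standard error, 0.0663, adjusted p = 5.38e-05, edgeR's quasi-likelihood test), and UPF3A rose by 0.83 (SE 0.097, adjusted p = 9.17e-05, same test). UPF3A had 2.89 ± 0.142 CPM in HEK WT and 5.15 ± 0.358 CPM in HEK UL1 KO (SD, n = 3 each). UPF3A was named after its value was seen.

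Among 10 spliceosome components for splice site recognition, 4 were lower and 2 higher in CN, with a median of -0.24. SF3A1 had the smallest p (log2 fold change -0.55, SE 0.0886, adjusted p = 0.000755, edgeR's quasi-likelihood test), and the helicase gene SNRNP200, named after its value was seen, rose by 0.47 (SE 0.0851, adjusted p = 0.00165, same test). Of 5 paraspeckle proteins, 1 was lower, CPSF6 (log2 fold change -0.26, SE 0.0766, adjusted p = 0.0212, same test), and the median was -0.11. In NO, 0 genes of these 3 lists were called by the same test.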
